A study of Drosophila melanogaster with 3 samples.

Results

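The genes described here are the 73 protein-coding genes of *Drosophila melanogaster* whose symbol begins with mRpL (47 genes) or mRpS (26 genes), the nuclear genes for proteins of the large and small subunits of the mitochondrial ribosome. They were taken by symbol from the annotation, out of 13945 protein-coding genes, and are called mRp genes below. The study mapped the genomic positions of CG13894, a fly protein named by its gene number, by chromatin immunoprecipitation and sequencing (ChIP-seq) with an anti-GFP antibody. The material was whole embryos of 1 transgenic line carrying CG13894 fused to GFP at its C-terminus, collected from 2 to 24 h, in 1 group of 3 biological replicates with no second condition. The line carries a tagged transgene in whole animals of mixed stage, so neither a cell type nor a stage can be told apart. Each replicate had a peak list of its own, and a further list was called on the pooled replicates. A thresholded list of 7434 peaks was labelled as passing a cutoff on the irreproducible discovery rate, a measure of how well peak ranks repeat. The replicate lists and the pooled list each stop at 30000 peaks, so a promoter without a listed peak may still hold weak enrichment. No read counts were among the values used, so the depth behind each peak is unknown.

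Mitochondria make a handful of membrane proteins of the respiratory chain and ATP synthase on their own ribosomes. The RNA of those ribosomes is encoded in the mitochondrial genome, whereas the ribosomal proteins are encoded in the nucleus, made in the cytoplasm and imported. Many mRp genes descend from the bacterial ribosome of the mitochondrial ancestor, and others are additions found in mitochondria. In the compact fly genome, genes often lie head to head and are transcribed away from a common intergenic stretch, so a peak between them cannot be assigned to 1 of the 2 genes.

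The DNA under the summits is shown first, because the mRp summits held less G and C than the promoter summits of all bound genes. Each line gives 101 bp centred on the thresholded summit of a bound mRp gene, on the gene's strand of dm6, with capitals for the word AATTAA on either strand. The first 5 are the best-ranked mRp summits with no exonic base in the window whose sequence can be shown. The others are the summits of mRpL19 and mRpL4, which share their promoters with no other gene. Not shown are the windows of mRpL41 (rank 17, 21.8% G and C) and mRpL53 (rank 990, 57.4%), which ranked ahead of mRpL20 (1108). Over all 26 bound mRp genes, 15 windows held the word.
mRpS10, chr3R:15229486-15229586, plus strand: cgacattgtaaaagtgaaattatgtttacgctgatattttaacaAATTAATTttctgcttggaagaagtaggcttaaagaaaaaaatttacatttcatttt
mRpS23, chr2L:13835406-13835506, minus strand: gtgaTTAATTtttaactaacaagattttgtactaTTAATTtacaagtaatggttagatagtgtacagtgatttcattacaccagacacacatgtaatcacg
mRpL24, chr2L:4945438-4945538, minus strand: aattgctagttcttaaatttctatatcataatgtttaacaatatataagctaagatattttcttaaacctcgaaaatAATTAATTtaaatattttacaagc
mRpS2, chr2L:4850491-4850591, minus strand: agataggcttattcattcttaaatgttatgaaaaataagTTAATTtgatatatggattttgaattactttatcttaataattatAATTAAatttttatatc
mRpL20, chr3L:13018103-13018203, minus strand: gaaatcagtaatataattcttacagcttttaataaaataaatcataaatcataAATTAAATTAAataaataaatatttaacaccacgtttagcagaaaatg
mRpL19, chr3R:8673968-8674068, plus strand: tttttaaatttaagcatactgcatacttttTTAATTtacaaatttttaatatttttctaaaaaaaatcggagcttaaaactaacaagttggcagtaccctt
mRpL4, chr2L:16329149-16329249, minus strand: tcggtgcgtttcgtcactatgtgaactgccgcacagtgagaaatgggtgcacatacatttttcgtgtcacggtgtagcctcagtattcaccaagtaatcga

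The windows of mRpS10, mRpS23, mRpL24, mRpS2, mRpL20 and mRpL19 were 24.8%, 28.7%, 18.8%, 15.8%, 17.8% and 22.8% G and C, and each held the capitalised word. The window of mRpL4 was 47.5% G and C and held no copy. A different word was common at the starts of mRp genes themselves. The next lines give the 60 bases before the transcription start site (TSS) and the first transcribed base of 2 bound genes, mRpS2 and mRpL21, and of 2 genes without a thresholded summit, mRpL35 and mRpS35, with capitals for the E-box palindrome CAGCTG.
mRpS2, chr2L:4850419-4850479, minus strand: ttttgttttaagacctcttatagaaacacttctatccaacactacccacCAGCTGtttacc
mRpL21, chr3L:19255061-19255121, minus strand: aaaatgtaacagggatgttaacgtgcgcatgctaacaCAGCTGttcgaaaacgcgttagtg
mRpL35, chr3R:22023467-22023527, plus strand: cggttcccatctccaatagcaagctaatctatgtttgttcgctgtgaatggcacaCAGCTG
mRpS35, chr3L:2780839-2780899, plus strand: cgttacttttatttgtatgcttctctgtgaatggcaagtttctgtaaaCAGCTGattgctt

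CG13894-GFP peaks lay at 26 of the 73 mRp genes, 35.6% (95% Wilson interval 25.6 to 47.1), against 22.8% of all protein-coding genes (3175 of 13945). A gene was called bound when at least 1 of its TSSs had a thresholded summit no more than 500 bp away. Intervals here cover the counting of genes only. The mRp share was above the background in every replicate. Among the 7434 strongest peaks of each replicate, summits lay at 27 mRp genes (37.0%) in replicate 1, 24 (32.9%) in replicate 2 and 32 (43.8%) in replicate 3. The matching shares of all protein-coding genes were 23.3%, 23.3% and 25.0%. The mean over the replicates was 37.9% ± 5.54 for mRp genes and 23.9% ± 0.961 for all protein-coding genes (SD, n = 3 replicates). The background share differed with the number of annotated TSSs, for reasons not tested. When only 1 TSS per gene was counted, 35.6% of mRp genes and 20.5% of all protein-coding genes were bound. Of the mRp genes, 67 (91.8%) had 1 annotated TSS, against 73.5% of all protein-coding genes, and among genes with 1 TSS the bound shares were 34.3% for mRp genes (23 of 67) and 16% for all (1641 of 10246).

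**Figure D1:**
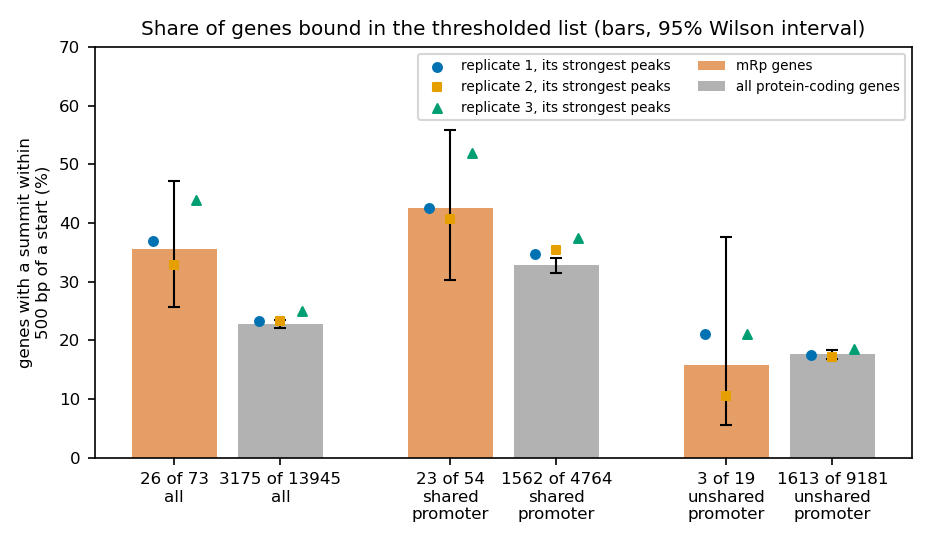
Percent of genes with a summit within 500 bp of a TSS, for mRp genes (orange) beside all protein-coding genes (grey), over all genes and by whether another gene's TSS lies within 500 bp. Bars are the thresholded list with 95% Wilson intervals and points are the 7434 strongest peaks of each replicate; the orange bars stand at 35.6%, 42.6% and 15.8% and the grey ones at 22.8%, 32.8% and 17.6%.

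The mRp genes were mostly arranged head to head with another gene. A divergent protein-coding partner had its TSS within 500 bp at 53 of 73 mRp genes (72.6%), against 26.8% of all protein-coding genes (3737). Counting partners of any kind and strand, 54 mRp genes shared a promoter and 19 did not. Of the shared promoters, 23 were bound (42.6%, interval 30.3 to 55.8), against 32.8% of all protein-coding genes with a shared promoter. Of the unshared promoters, 3 were bound (15.8%, interval 5.52 to 37.6), against 17.6% of all protein-coding genes with an unshared promoter. Among genes with 1 annotated TSS, the shares were 40.8% (20 of 49) against 25.6% at shared promoters and 16.7% (3 of 18) against 11.8% at unshared ones. The contrast between shared and unshared mRp genes depended on the distance that counts as sharing. With 200 bp in place of 500 bp, 7 of 23 shared mRp genes (30.4%) and 19 of 50 unshared ones (38.0%) were bound, so the order of the mRp shares turned. Over all protein-coding genes the shares at that setting were 30.2% shared and 21.2% unshared, so the order there did not turn: shared mRp genes stood at the background and unshared ones above it.

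The distance between the divergent starts differed between bound and unbound mRp genes. It had a median of 312 bp (quartiles 182 and 400) at the 22 bound pairs and 192 bp (quartiles 52.5 and 352) at the 31 others, and the quartile ranges overlapped. Over all protein-coding genes the medians were 257 bp for bound and 235 bp for unbound pairs. By distance, 5 of 18 mRp pairs within 100 bp were bound (27.8%), 1 of 4 at 101 to 200 bp (25%), 5 of 11 at 201 to 300 bp (45.5%), 6 of 8 at 301 to 400 bp (75%) and 5 of 12 at 401 to 500 bp (41.7%). The shares for all protein-coding genes in the same 5 bins were 30.5%, 27.1%, 36.8%, 37.9% and 32.7%. Each mRp bin holds fewer than 20 genes, so the order of the bins rests on few promoters.

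The strongest mRp peak was at mRpL41, a large-subunit protein with no bacterial counterpart, on arm 2R from 15217024 to 15217617 on the minus strand (all gene coordinates are dm6, Ensembl release 115). Its summit ranked 17 in the thresholded and pooled lists and 14, 21 and 14 in replicates 1, 2 and 3, where rank 1 is the highest signal of a list. All thresholded peaks are also the 7434 strongest pooled peaks, so both lists give a peak the same rank. The signal was 5281 in the thresholded list, 15.6 times that list's median of 338. The summit lay 135 bp upstream of the only annotated TSS, in intergenic sequence, with no other gene's start within 500 bp. The rank hardly moved between replicates, and no annotated neighbour shares this promoter.

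The next peak stood between mRpS10 and Art3, an arginine methyltransferase gene. mRpS10, the counterpart of a protein in the head of the bacterial small subunit, lies on 3R from 15229665 to 15230516. Its summit ranked 34 in the thresholded and pooled lists and 39, 34 and 28 in replicates 1, 2 and 3. It was 129 bp upstream of mRpS10 and 128 bp from the start of Art3, nearly at the midpoint of the 257 bp between them, with a signal of 3394. At mRpS23, a small-subunit protein with no bacterial counterpart (2L, 13834250 to 13835072), the summit ranked 63 in both joint lists and 58, 76 and 67 in the replicates. That summit was 384 bp upstream of mRpS23 and 108 bp from CenG1A, a gene for an Arf GTPase-activating protein, and its signal was 2566, 7.59 times the median.

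mRpL23 was the only bound mRp gene whose summit lay downstream of its nearest start. It encodes the counterpart of a bacterial protein at the mouth of the peptide exit tunnel and lies on 3L from 2372844 to 2373704. Its summit ranked 133 in both joint lists and 111, 130 and 157 in replicates 1, 2 and 3. It fell 82 bp downstream of the nearest of 3 annotated TSSs, in an mRpL23 intron and beyond the starts that face CG9004. mRpL24, the counterpart of an assembly protein of the bacterial large subunit, shares its promoter with betaggt-I, the gene for the beta subunit of a protein prenyltransferase. Its summit ranked 329 in both joint lists and 385, 258 and 335 in the replicates, 127 bp upstream of mRpL24. At mRpS2, the counterpart of a bacterial small-subunit protein, the summit ranked 427 in both joint lists and 466, 369 and 497 in the replicates, 122 bp upstream and 100 bp from Mon1, whose product acts in late endosome maturation. These 6 genes were the mRp genes with a signal above 1000, and each was among the 497 strongest peaks of every replicate.

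Ranks spread more among the next 6 genes. mRpL53, a large-subunit protein with no bacterial counterpart, starts at the same base as CG33155 and 170 bp from AGO1, the Argonaute protein of the microRNA pathway. Its summit, in an AGO1 intron, ranked 990 in both joint lists and 1385, 706 and 1022 in replicates 1, 2 and 3. mRpL20, counterpart of an early assembly protein of the bacterial large subunit, had a summit ranked 1108 in both joint lists and 1028, 772 and 2392 in the replicates, 113 bp from Icmt, an isoprenylcysteine methyltransferase gene. At mRpS16, counterpart of a bacterial small-subunit protein, the summit ranked 1217 in both joint lists and 1366, 975 and 1287 in the replicates. It lay 14 bp from the start of combgap (cg), a zinc finger transcription factor gene, and 83 bp upstream of mRpS16.

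mRpL34, mRpS26 and mRpL33 filled the remaining places among the 12 best-ranked. The mRpL34 summit ranked 2180 in both joint lists and 6068, 2067 and 1206 in replicates 1, 2 and 3, the weakest of these 12 in replicate 1, and faced dystroglycan (Dg). The mRpS26 summit ranked 2202 in both joint lists and 2831, 2065 and 2251 in the replicates, and faced CG13698. The mRpL33 summit ranked 2947 in both joint lists and 3330, 3395 and 2595 in the replicates, and faced norpA, the phospholipase C gene of fly vision.

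The other 2 bound genes with an unshared promoter ranked lower than mRpL41. mRpL4, the counterpart of a bacterial protein lining the peptide exit tunnel, lies on 2L from 16328059 to 16329132. Its summit, 67 bp upstream, ranked 3026 in both joint lists and 2799, 2563 and 5070 in replicates 1, 2 and 3. mRpL19, the counterpart of a bacterial protein at the subunit interface, lies on 3R from 8674109 to 8675196, and its summit, 91 bp upstream, ranked 4257 in both joint lists and 6165, 8463 and 2415 in the replicates. The replicate 2 rank of mRpL19 lay outside that replicate's 7434 strongest peaks.

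The remaining 12 bound mRp genes ranked from 3052 to 7069 in the thresholded list. They shared promoters with genes of varied roles: mRpS21 with Droj2 (a DnaJ chaperone), mRpL13 with CG10602 (the same start and strand), mRpS24 with Apc2, mRpS7 with the cell cycle kinase Cdk1, mRpS18B with Kua, mRpS31 with hzg and mRpL18 with Taz, the tafazzin that remodels the mitochondrial lipid cardiolipin. The others were mRpL27 with CG15435, mRpS17 with Nop60B (the pseudouridine synthase of ribosomal RNA), mRpS22 with CG5003, mRpS11 with Ns1 (a nucleostemin) and mRpL21 with reptin (rept).

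**Figure D2:**
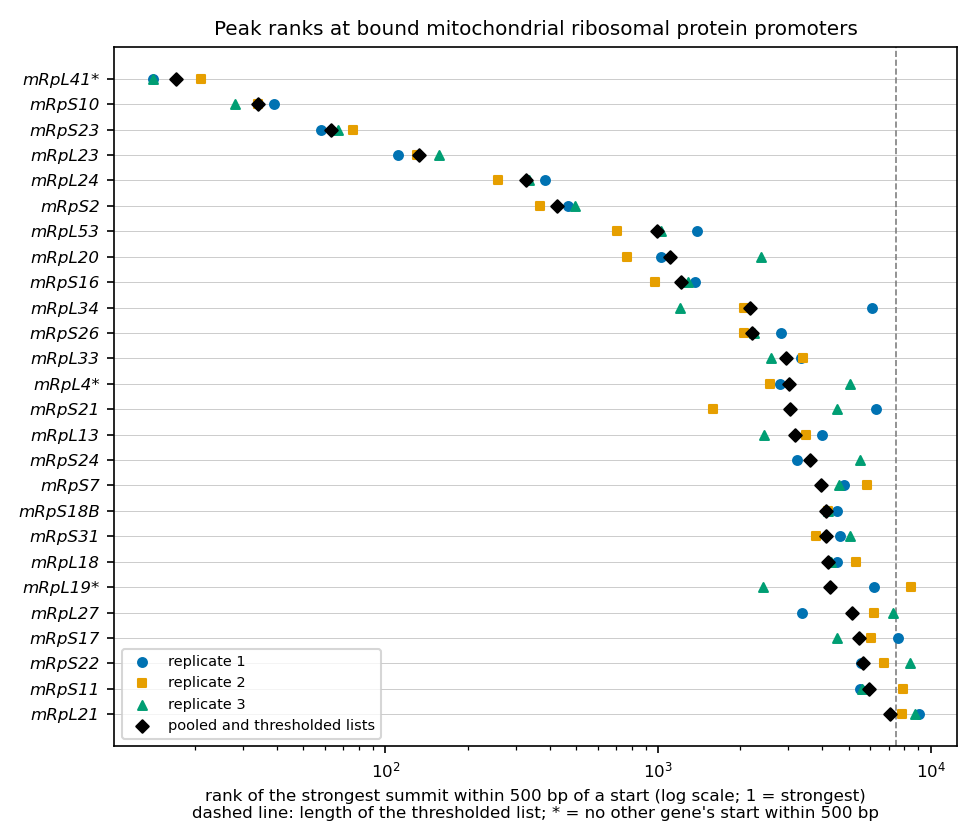
Rank of the strongest summit within 500 bp of a TSS (x axis, log scale, 1 is the strongest peak of a list) for the 26 bound mRp genes, ordered by the thresholded list, with the 3 replicates as coloured points and the joint pooled and thresholded rank as a black diamond. Ranks run from 17 at mRpL41 to 7069 at mRpL21, and points right of the dashed line at 7434 are outside the strongest peaks of that replicate.

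Over all 26, the median rank was 3039 (quartiles 1020 and 4184), and the best-ranked were more common than among other bound genes. Ranks up to 100 were held by 3 mRp genes (11.5%), against 1.70% of all bound protein-coding genes. A signal above 1000 was found at 6 mRp genes (23.1%), against 9.04% of all bound protein-coding genes. The median rank of all bound protein-coding genes was 2817, so the middle of the mRp ranks was not better than the background. Each bound mRp gene had 1 thresholded summit, and no 2 mRp genes shared one.

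Most bound mRp genes also had a summit among the strongest peaks of each replicate. Summits among the strongest peaks of all 3 replicates lay at 21 of 73 mRp genes (28.8%), against 17.2% of all protein-coding genes. Of the 26 bound mRp genes, 20 were in the strongest peaks of 3 replicates and 5 of 2 replicates (mRpL19, mRpS11, mRpS17, mRpS22 and mRpS24). The thresholded peaks are the 7434 strongest pooled peaks, called on these same replicates together, so this count is largely set in advance. mRpL21 was in the strongest peaks of 0 replicates, with ranks of 9030, 7854 and 8746, and mRpS24 had no summit in the replicate 2 list. Without replicate 1, 2 or 3, the number of mRp genes bound was 21, 23 and 21, where a thresholded summit had to lie in a strongest peak of both other replicates. These are 28.8%, 31.5% and 28.8% of mRp genes, against 17.5%, 17.8% and 17.6% of all protein-coding genes under the same rule. That rule only adds a filter to a list derived from all 3 replicates, so it can lose genes but gain none. Across bound mRp genes, Spearman's rho between the ranks of 2 replicates was 0.845 for replicates 1 and 2 (25 genes), 0.727 for 1 and 3 (26 genes) and 0.855 for 2 and 3 (25 genes). The same values over all bound protein-coding genes were 0.802, 0.784 and 0.778. These correlations run across genes, which share the libraries and are no replicates.

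Summits sat upstream of mRp starts. The nearest thresholded summit was at a median of -140 bp from the TSS (quartiles -214 and -85.0), and 25 of 26 were upstream (96.2%). Over all bound protein-coding genes the median was -82.0 bp and 76.5% were upstream. Medians in the strongest peaks of replicates 1, 2 and 3 were -136, -144 and -138 bp for mRp genes (SD 4.16 bp) and -87.0, -83.0 and -85.0 bp for all protein-coding genes. The TSS number and the divergent arrangement both move with this difference. Among bound genes with 1 TSS and a divergent coding partner, the medians were -162 bp for 19 mRp genes and -128 bp for 702 genes in all, with 100% and 94.3% upstream. The nearest summit of a replicate lay a median of 11.0 bp from the thresholded summit, and 69 of 77 were within 50 bp. Thresholded summits are pooled summits, called on these same replicates together, so their closeness to the replicate summits is partly set in advance.

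At the 22 bound divergent pairs, 19 summits lay between the starts and 3 outside them (mRpL18, mRpL23 and mRpL27). The summit was nearer the partner's start at 15 pairs and nearer the mRp start at 7, with median distances of 153 bp to the mRp start and 122 bp to the partner's. The 19 summits between the starts lay a median of 25 bp from the midpoint. Since the summit counts for both genes, these promoters do not show which of the 2 genes the peak belongs to.

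**Figure D3:**
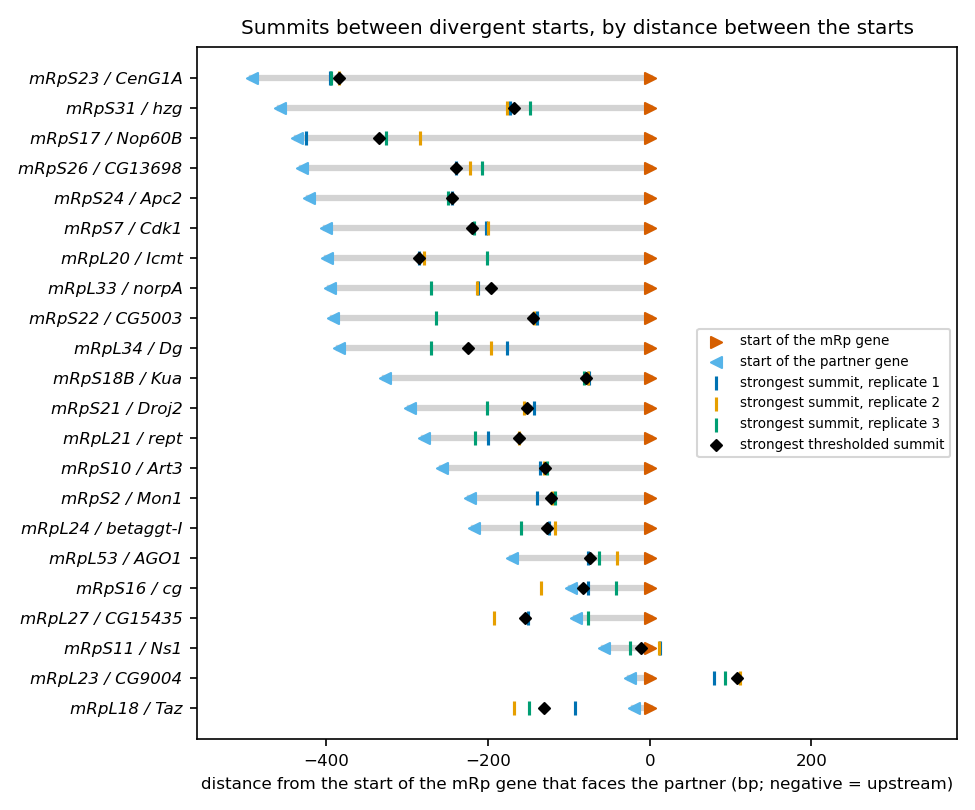
The 22 bound mRp genes with a divergent protein-coding partner, one per line, by distance between the starts. The x axis gives bp from the mRp start that faces the partner (orange arrow); blue arrows are partner starts, black diamonds the strongest thresholded summit and coloured ticks the strongest summit of each replicate. The diamond lies between the arrows in 19 lines and outside them for mRpL27, mRpL23 and mRpL18.

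Below the threshold, 8 further mRp genes had a pooled summit, which made 34 of 73 (46.6%), against 38.5% of all protein-coding genes. At shared promoters the pooled shares were 55.6% (30 of 54) against 47.3%, and at unshared promoters they went the other way, 21.1% (4 of 19) against 34%. The best-ranked of the 8 were mRpL35 (pooled rank 7700), mRpL50 (8917), mRpS6 (12868), mRpL55 (13213), mRpL22 (13733) and mRpL2 (15200). Of these, mRpL35, mRpL50, mRpS6 and mRpL2 were in the strongest peaks of 1 replicate each, and mRpL55 and mRpL22 of 0. mRpL2 and mRpL55 also lay just outside the 500 bp limit of a thresholded summit. The summit nearest to mRpL2 was 730 bp upstream, in an intron of its neighbour FoxK (rank 1222), and that nearest to mRpL55 was 631 bp downstream of its start (rank 5592), with a peak that reached within 500 bp.

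At mRpL47, the replicate lists and the joint lists gave different pictures. Its promoter ranked 1361, 1937 and 1440 in replicates 1, 2 and 3, with summits at -126, -56 and -103 bp, better than most bound mRp genes. No pooled summit lay within 500 bp, and the nearest was 2744 bp away. It was the only mRp gene in the strongest peaks of all 3 replicates without a pooled summit (1 of 73, 1.37%), against 0.445% of all protein-coding genes (62 of 13945). mRpL44 also had no pooled summit, with ranks of 2687 and 3406 in replicates 2 and 3 and no summit in the replicate 1 list. What set the lists apart at these 2 genes was not tested. Both were picked out after their values were seen.

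No summit of any of the 5 lists lay within 500 bp of 24 mRp genes (32.9%), against 49.7% of all protein-coding genes. The first 10 by number were mRpL1, mRpL10, mRpL12, mRpL14, mRpL15, mRpL30, mRpL36, mRpL37, mRpL38 and mRpL39. Of the 39 mRp genes with no pooled summit, 7 more had a summit in 1 replicate list, 6 in 2 and 2 in 3 (mRpL9 and mRpL47).

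Both subunits, taken from the symbol alone (mRpL or mRpS), were represented among the bound genes. Small-subunit genes were bound in 13 of 26 cases (interval 32.1 to 67.9) and large-subunit genes in 13 of 47 (27.7%, interval 16.9 to 41.8), and the intervals overlapped. Against 22.8% of all protein-coding genes, the large-subunit share lay near the background, which its interval covers, and the interval of the small-subunit share lay above it. In the strongest peaks of replicates 1, 2 and 3 the counts were 12, 11 and 13 small-subunit genes and 15, 13 and 19 large-subunit genes. The share of genes with a shared promoter was alike, 19 of 26 small-subunit and 35 of 47 large-subunit genes. Ancestry was set by the number in the symbol, with mRpL47, mRpS24 and mRpS28 added by name, and not by comparing sequences. By this rule, 20 of 45 genes with a bacterial counterpart were bound (44.4%, interval 30.9 to 58.8) and 6 of 28 without one (21.4%, interval 10.2 to 39.5), with 35 and 19 shared promoters. These intervals overlapped too. The share without a counterpart was at the background of 22.8%. The bound genes without a counterpart were mRpL41, mRpL53, mRpS22, mRpS23, mRpS26 and mRpS31.

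Bound mRp genes were spread over the 5 large arms. On 2L 8 of 12 mRp genes were bound (66.7%) and on 2R 6 of 12, against 23.4% and 21.6% of all protein-coding genes of those arms. On 3L the count was 5 of 17 (29.4%) and on 3R 6 of 21 (28.6%), against 24.4% and 21%. On X, mRpL33 alone of 11 mRp genes was bound (9.09%, interval 1.62 to 37.7), against 23.4% of all protein-coding genes there. With 11 to 21 genes per arm, the intervals of 2L (39.1 to 86.2) and X barely miss each other and all other pairs of arms overlap.

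Other genes of mitochondrial function gave lower shares than cytoplasmic ribosomal protein genes. Of the 92 genes listed by symbol for the respiratory chain and ATP synthase, 28 were bound (30.4%, interval 22.0 to 40.5). The share of all protein-coding genes, 22.8%, lay within that interval. The list was taken by symbol and holds genes named with an added L, such as COX4L and SdhAL. Of those, only COX7AL2 and ATPsynepsilonL were bound, so the share without them would be higher and was not counted. The bound genes of this list were led by the complex I subunit genes ND-ASHI (rank 160) and ND-MWFE (732), the cytochrome c oxidase gene COX7AL2 (1040) and ND-42 (1121). In that list, too, the shared promoters had the higher share, 47.7% against 14.6% of the unshared. The matching shares of all protein-coding genes were 32.8% and 17.6%. Of 40 other genes of mitochondrial DNA maintenance, transcription and translation, 6 were bound (15.0%, interval 7.06 to 29.1), and this interval also covered 22.8%. The best-ranked were the DNA-binding protein gene mtSSB (987), mTerf5 (3979), the arginyl-tRNA synthetase gene ArgRS-m (4139) and the elongation factor gene mEFG1 (5319). tko and bonsai, which encode small-subunit proteins of the mitochondrial ribosome under other names, had no summit in any list.

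Cytoplasmic ribosomal protein genes, which build the other ribosome of the cell, were bound at 64 of 88 (72.7%, interval 62.6 to 80.9), above the interval of the mRp genes. Among unshared promoters, 15.8% of those of mRp genes (3 of 19) and 64.3% of those of cytoplasmic ribosomal protein genes (27 of 42) were bound. In the strongest peaks of the replicates the means were 37.9% ± 5.54 for mRp genes and 76.5% ± 3.65 for cytoplasmic ribosomal protein genes (SD, n = 3 replicates).

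The summits of mRp genes lay in DNA poor in G and C. The 101 bp windows at the 26 bound mRp summits had a median of 28.2% G and C (quartiles 22.0 and 31.2), and 20 of 26 were under 35%. The 2511 distinct strongest summits of all bound protein-coding genes had a median of 41.6% (quartiles 31.7 and 49.0), with 32.5% under 35%. In the strongest peaks of replicates 1, 2 and 3 the mRp medians were 29.7%, 28.2% and 29.7% (SD 0.857), against 41.6%, 42.6% and 40.6%. The divergent arrangement moves with composition: where the bound gene had a divergent coding partner, the medians were 28.2% for mRp genes and 34.7% for all protein-coding genes. The 6 mRp windows at or above 35% were those of mRpL4 (47.5%), mRpL13 (38.6%), mRpL18 (47.5%), mRpL53 (57.4%), mRpS11 (50.5%) and mRpS16 (60.4%).

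Low G and C content was not particular to the bound mRp genes. In a fixed window from 190 to 90 bp before the start, chosen without regard to peaks, the median was 27.2% at bound and 28.7% at unbound mRp genes. The same window had medians of 33.7% at bound and 34.7% at unbound genes over all protein-coding genes, and 31.7% over all genes with a divergent coding partner.

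**Figure D4:**
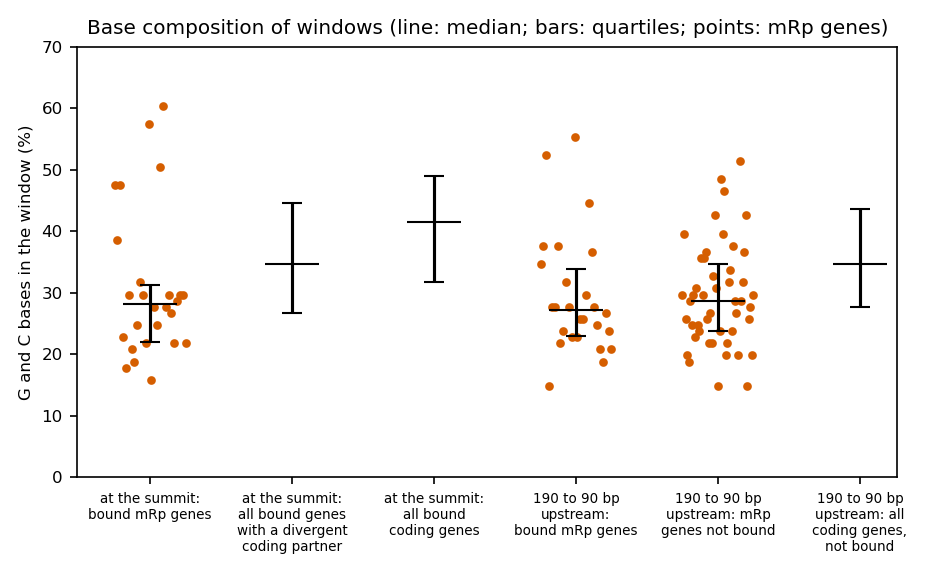
Percent of G and C bases in 101 bp windows, at the strongest summit (first 3 columns) and in a fixed window 190 to 90 bp before the start (last 3 columns). Horizontal lines are medians, bars run between the quartiles and orange points are single mRp genes; the medians at the summit are 28.2%, 34.7% and 41.6%, and those in the fixed window are 27.2% for bound mRp genes, 28.7% for unbound mRp genes and 34.7% for all unbound protein-coding genes.

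The word AATTAA (either strand), picked after the mRp windows had been seen, was in 15 of 26 mRp summit windows (57.7%), against 15.1% of those of all bound protein-coding genes. Base composition moves with this difference. Among windows under 35% G and C, the shares were 75% (15 of 20) at mRp summits and 32.7% (267 of 817) over all bound protein-coding genes, whose median G and C content was 25.7% and 27.7%.

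Promoter sequence was searched for 8 motifs on both strands, from 250 bp before to 50 bp after 1 TSS per gene. The E-box CAGCTG, a palindrome bound by some basic helix-loop-helix factors, was in 40 of 73 mRp promoters (54.8%), against 17.7% of all protein-coding promoters. It was equally common at bound (53.8%, 14 of 26) and unbound (55.3%, 26 of 47) mRp genes, and at mRp genes with a divergent coding partner (54.7%) and with an unshared promoter (52.6%). The matching shares over all protein-coding genes were 24.8% with a divergent coding partner and 14.9% unshared. Matches lay at the start: the first base was at a median of 4 bp downstream of the TSS in mRp promoters (quartiles -17.8 and 16 bp), against -48.0 bp in all promoters. Within 100 bp of the mRp summits themselves, CAGCTG was found in 3 of 26 windows (11.5%), against 12.4% of all thresholded summits at coding promoters.

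The DNA replication-related element TATCGATA (DRE), a promoter motif of many housekeeping genes in flies, was in 15 mRp promoters (20.5%), against 9.12% of all. At unshared promoters the shares were 36.8% (7 of 19) and 6.14%, and with a divergent coding partner 15.1% and 17.1%. Its core ATCGAT, which the longer motif contains, was in 37.0% of mRp promoters and 22.9% of all. GAGAG, the repeat read by GAGA factor, was in 16.4% of mRp promoters and 30.6% of all. Shares were closer for GGTCACAC, core promoter motif 1, at 11.0% against 7.56% and for the E-box CACGTG at 6.85% against 4.21%. They were also closer for the NRF-1 motif GCGCATGC at 1.37% against 1.11% and for TATAAA, the TATA box, at 46.6% against 45.7%. CACGTG was in 3 of 26 bound mRp promoters (11.5%), against 4.50% of all bound protein-coding promoters, and in 2 of 47 unbound ones (4.26%), against 4.12% of all unbound. Within 100 bp of the summit it was in 3 of 26 mRp windows (11.5%), against 2.93% of all thresholded summits at coding promoters, and DRE was in 4 of 26 (15.4%), against 7.12%. These counts rest on 3 and 4 windows. Between bound and unbound mRp genes, the shares of DRE were 19.2% and 21.3%, and those of GAGAG 15.4% and 17.0%. A match describes the letters of the window and does not show that a factor binds there.

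**Figure D5:**
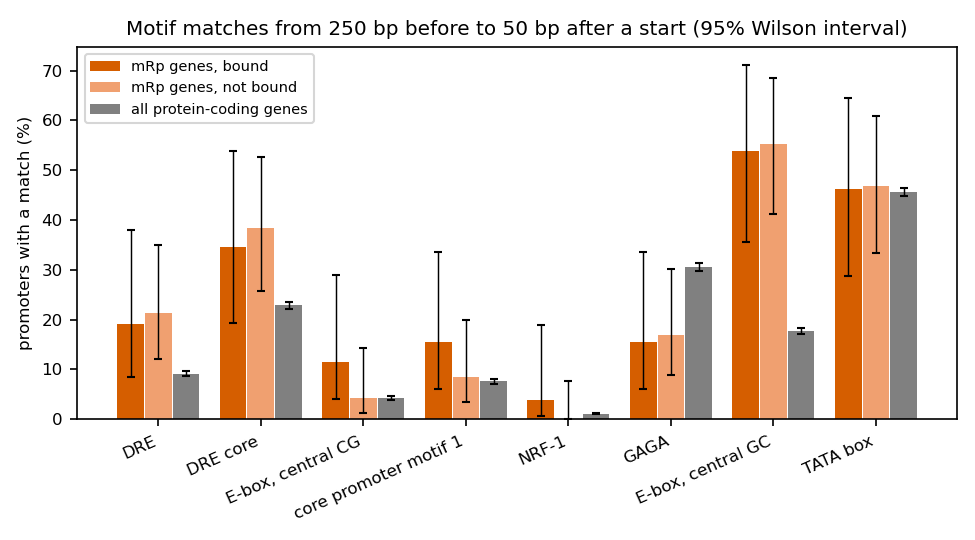
Percent of promoters, from 250 bp before to 50 bp after the TSS, with a match to each motif on either strand, for bound mRp genes (dark orange), unbound mRp genes (light orange) and all protein-coding genes (grey), with 95% Wilson intervals. The E-box with a central GC is at 53.8%, 55.3% and 17.7%, and GAGA at 15.4%, 17.0% and 30.6%.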

How the data were processed

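Per the labels, chromatin of whole embryos was sonicated to 200 to 800 bp and precipitated with an anti-GFP antibody. The authors deposited narrowPeak lists on dm6: 1 per replicate, 1 for the pooled replicates and 1 passing an irreproducible discovery rate threshold. The aligner, caller and cutoff are named neither in the labels nor in the file notes; the control library and signal tracks were not used here. The deposited signal is the caller's score on a scale specific to each list, so only ranks were compared between lists. The −log10 q-values in the deposited lists reach a ceiling and entered no result. The deposited summit offset, in bp from the peak start, gave the summit. In 5 thresholded peaks it passed the peak end and was set to the last base.

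Reference sequence was the RefSeq FASTA of Release 6 (dm6) with genes of Ensembl release 115 on the arms with peaks, without transposable elements and pseudogenes (17896 genes, 23309 TSSs). Sequence and annotation were checked against each other: ATG stood at 99.8% of 30618 start codons. Counting was done in Python 3.11.15 with NumPy 2.4.6 and SciPy 1.17.1 and was tested on simulated peaks. Intervals are 95% Wilson intervals.

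The members, lists and motifs were chosen with earlier results of these data known, and no hypothesis was tested, so no p-values are given. The 3 gene lists were written from gene symbols. Named are all bound mRp genes with their partners, values in the 5 lists for the 12 best-ranked and the unshared ones, mRp genes with a summit beyond 500 and up to 1000 bp, the 6 best below the threshold, up to 4 genes of the 2 other mitochondrial lists, and tko and bonsai. Alternatives were distances of 200 and 1000 bp, 1 TSS per gene, the stronger 50% of the thresholded list, overlap of any base, other sharing rules, leaving out each replicate, other motif windows and, added after the data were seen, shorter and longer windows around summits.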

Additional observations from a re-analysis of the deposited data

How the results depend on the processing

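No paired analysis was possible because there is 1 group. In the stronger 50% of the thresholded list, 16 mRp genes were bound (21.9%, against 14.2% of all protein-coding genes), 14 of them at shared promoters (25.9% against 22.5%). With a distance of 200 bp, 19 mRp genes were bound (26.0% against 18.1%), and with 1000 bp 28 (38.4% against 26.5%). Keeping only thresholded summits in strongest peaks of 2 replicates, with each replicate set aside in turn, gave 21 to 23 bound mRp genes (28.8% to 31.5%, against 17.5% to 17.8%). The thresholded list itself still rested on all 3 replicates. The median summit offset was then -135 to -131 bp. That offset was -127 bp with a distance of 200 bp, -132 bp in the stronger 50% and -135 bp with any base of the peak counted, against -140 bp as reported. When sharing was set at 200 bp, 7 shared and 19 unshared mRp genes were bound (30.4% and 38.0%, against 30.2% and 21.2%), and at 1000 bp 1 of 13 unshared (7.69% against 16.6%). Median G and C content was 30.8% in windows of 100 bases to each side of the summit and 27.5% in windows of 51 bp, both added after the data were seen. The TATA box share was 27.4% within 100 bp of the TSS. The cause of these moves was not tested, beyond the smaller or larger windows and lists themselves. Depth is unknown, and with 73 genes, and 19 at unshared promoters, differences of a few genes lie within the counting intervals.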
